A study of Homo sapiens with 6 samples.

Results

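The STAT and IRF transcription factors considered here are STAT2, STAT3, STAT4, STAT6, IRF1, IRF2, IRF3, IRF7 and IRF9, the factors through which cytokine and interferon receptors reach the genome. They were chosen by gene name from the list of 9, and every probe set that the array annotation gives to 1 of them alone was taken. This gave 10 probe sets for 8 of the 9 genes, out of 22215 probe sets and 11963 named genes on the array. STAT3 and STAT6 had 2 probe sets each and the other 6 genes had 1. The annotation used here names no probe set for STAT2, so its expression was not analysed here.

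The samples are 3 RASv12 samples, which are senescent WI-38 fibroblasts overexpressing RASv12, and 3 control samples, which are growing wild-type WI-38 fibroblasts. WI-38 is an untransformed human strain from fetal lung, and RASv12 is a constitutively active RAS GTPase whose family member the labels do not name. Per the labels, cells of the study were infected by retroviral gene transfer at 3% oxygen, and RNA was amplified in 2 rounds before hybridization. No label says whether control cells received an empty vector or whether replicates are separate cultures. Infection and RASv12 therefore cannot be told apart, and p-values measure the spread between these samples alone. RASv12 samples are all senescent and control samples all growing, so RASv12, senescence and growth state cannot be told apart. The labels give Cy3 for RASv12 and Cy5 for control samples on an array type read in 1 colour, so dye and group cannot be told apart either.

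STATs wait in the cytoplasm until a Janus kinase bound to a cytokine receptor phosphorylates them, after which they pair up, enter the nucleus and bind gamma-activated sites. STAT3 answers the interleukin 6 family, STAT4 interleukin 12 and STAT6 interleukins 4 and 13. Type I interferon activates STAT2, which joins IRF9 in the complex ISGF3 that binds the interferon-stimulated response element. IRF3 and IRF7 are activated by sensors of foreign or misplaced nucleic acid and switch on interferon genes, IRF1 is an activator that interferon gamma induces, and IRF2 competes with IRF1 for its sites. In fibroblasts these factors carry both antiviral defence and the response to secreted inflammatory cytokines.

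In RASv12 cells 4 of the 10 probe sets rose, namely those of IRF7, IRF3, IRF1 and STAT4. The brighter probe set of STAT3 fell, and the other 5 probe sets did not pass. Both probe sets of STAT6, the other probe set of STAT3, IRF2 and IRF9 make up those 5. Over all probe sets, 24.3% were called at an adjusted p under 0.05 from limma, 11.3% higher and 13.0% lower in RASv12 cells. RASv12 and control values had no overlap on 7 of the 10 probe sets, against 38.1% of all probe sets. The median log2 change of the 10 was 0.29, beside 0.014 over all probe sets. By brightest probe set, 5 of the 8 measured genes were called, against 27.8% of all genes, and 7 of the 8 had groups with no overlap, against 41.7% of all genes.

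The regulatory sequence of these genes is shown first for the 3 promoters that held a match to a searched motif, because the same factors act on each other's genes. RefSeq promoters (GRCh38.p14, 250 bases before to 50 after the start) were found for 6 of the 9 genes, STAT4 with 2. Both strands were searched for TTCNNNGAA (the gamma-activated site, to which STAT dimers bind), GAAANNGAA (the core of the interferon-stimulated response element, to which ISGF3 and IRFs bind) and GGNNTTTCC (a kappa B site, to which NF-kB binds). The 250 bases before the start are printed 5′ to 3′ on the strand of the gene, with the match in capitals. IRF1 lies on the minus strand at chr5:132490774-132491023, IRF9 on the plus strand at chr14:24161015-24161264 and the second STAT4 promoter on the minus strand at chr2:191151597-191151846.
IRF1: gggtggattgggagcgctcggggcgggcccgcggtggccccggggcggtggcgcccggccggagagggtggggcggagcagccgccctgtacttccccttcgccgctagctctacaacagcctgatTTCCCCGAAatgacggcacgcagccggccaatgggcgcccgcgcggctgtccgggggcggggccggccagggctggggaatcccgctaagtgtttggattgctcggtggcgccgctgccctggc
IRF9: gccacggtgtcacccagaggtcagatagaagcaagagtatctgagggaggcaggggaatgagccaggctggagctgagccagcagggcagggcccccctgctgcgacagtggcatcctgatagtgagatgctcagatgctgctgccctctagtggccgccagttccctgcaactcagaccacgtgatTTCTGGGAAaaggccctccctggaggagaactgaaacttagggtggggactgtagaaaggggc
STAT4: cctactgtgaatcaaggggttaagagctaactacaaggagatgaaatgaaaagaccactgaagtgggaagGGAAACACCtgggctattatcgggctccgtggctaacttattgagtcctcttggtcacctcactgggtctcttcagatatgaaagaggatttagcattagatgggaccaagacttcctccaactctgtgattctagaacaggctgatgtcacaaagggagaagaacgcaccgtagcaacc

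A gamma-activated site stood 124 bases before the start of IRF1 and 63 bases before the start of IRF9. It was held by 7.66% of the 35116 promoters in the RefSeq table. The STAT4 match is to GGNNTTTCC read on the opposite strand, 180 bases before the start, and 6.26% of promoters held one. Other spellings of each motif were not searched, so a promoter without a match, that of IRF1 for kappa B included, may still hold a site. No searched motif occurred in the windows of STAT2, STAT3, STAT6 or the other STAT4 promoter, and the response element core, found in 8.11% of promoters, occurred in none of the 7 windows. A match is a stretch of letters and was not tested for binding.

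**Figure D1:**
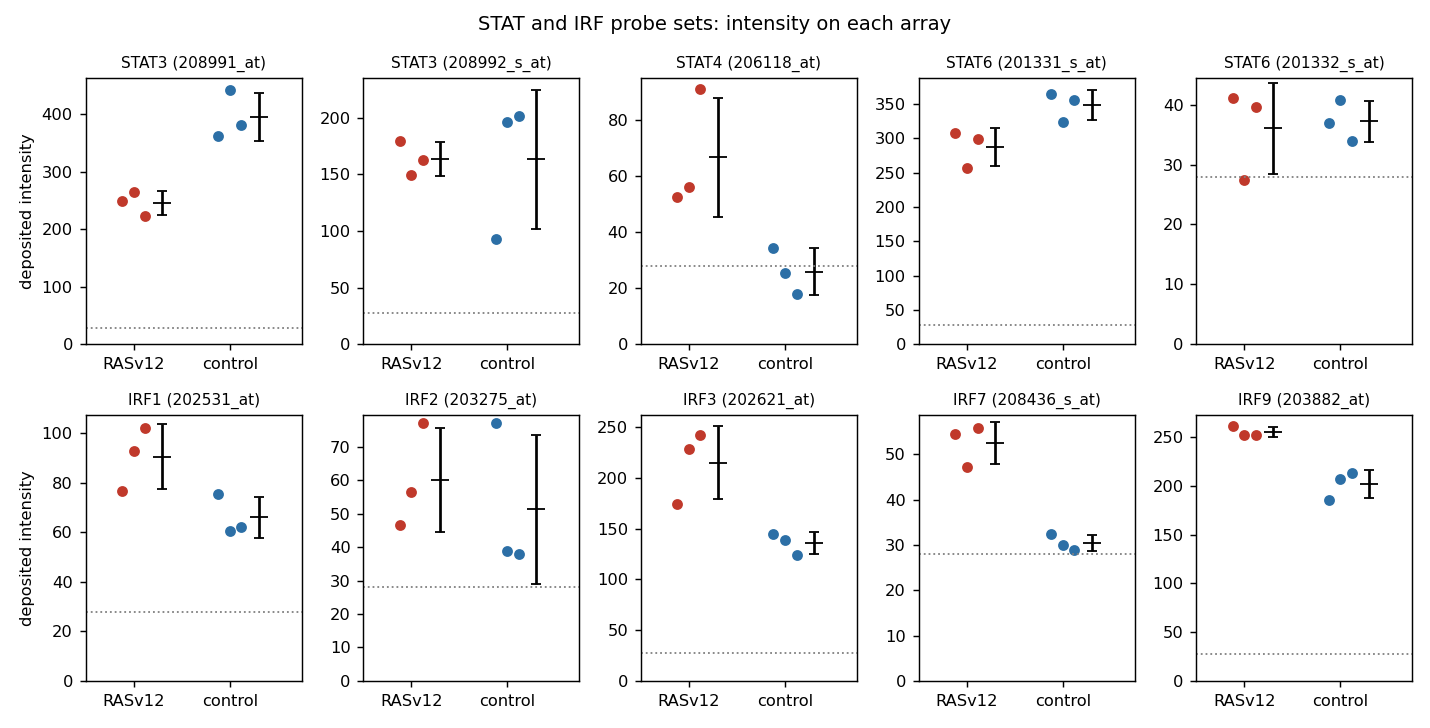
Deposited intensity of each of the 10 probe sets on each array, with RASv12 left of control in every panel; points are the 3 arrays of a group in replicate order, the bar beside them is the mean with SD, and the dotted line is the brightest low bacterial control (27.98). The RASv12 points of IRF7, IRF3, IRF1, IRF9 and STAT4 lie above all control points, and those of STAT3 208991_at and STAT6 201331_s_at lie below them.

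IRF7, the master regulator of type I interferon genes, lies at chr11:612555-615950 (GRCh38.p14). Its intensity was 54.6, 47.2 and 55.9 in RASv12 replicates 1 to 3, against 32.5, 29.9 and 29.0 in control replicates 1 to 3. The lowest RASv12 value was well above the highest control value, and the control values stood just over the low bacterial controls, whose brightest value was 27.98. The log2 change was 0.60 ± 0.095 (SE, n = 3 per group) with adjusted p = 0.0049 from limma, and the rise was called in all 17 other settings tried (adjusted p up to 0.0273).

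IRF3, which the kinase TBK1 activates by phosphorylation and which is present in resting cells, lies at chr19:49659572-49665857. Intensity was 174, 228 and 242 in RASv12 cells, against 145, 139 and 124 in control cells. The groups did not overlap, and RASv12 replicate 1 lay nearest to the control values. The log2 change was 0.61 ± 0.14 (adjusted p = 0.0218 from limma). Leaving out RASv12 replicate 2 or 3 or control replicate 2 or 3 each ended that call (adjusted p = 0.0776, 0.0584, 0.0607 and 0.0786), as did a pseudocount of 1 (adjusted p = 0.0573).

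IRF1, an activator of antigen presentation genes, lies at chr5:132481609-132490773. Its intensity was 76.4, 92.8 and 102 in RASv12 cells, against 75.4, 60.6 and 62.0 in control cells. RASv12 replicate 1 and control replicate 1 were almost level, while the other values stood apart. The log2 change was 0.45 ± 0.12 (adjusted p = 0.0363 from limma). The call ended without RASv12 replicate 2 or 3 (adjusted p = 0.108 and 0.0956), without control replicate 2 or 3 (0.111 and 0.112), on the intensities as deposited (0.0903) and with a pseudocount of 1 (0.0809).

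IRF9, the DNA-binding subunit of ISGF3, lies at chr14:24161265-24166565. Its values were tight, at 261, 252 and 253 in RASv12 cells, against 186, 207 and 213 in control cells. Every RASv12 value exceeded every control value, yet the log2 change of 0.31 ± 0.092 did not pass (adjusted p = 0.0518 from limma). The adjusted p ran from 0.00423 to 0.152 over 17 other settings, with a positive change in each. A further probe set is annotated to both RNF31 and IRF9 and cannot be given to either. It had intensities of 25.2, 29.9 and 22.1 in RASv12 cells, against 35.7, 33.2 and 26.7 in control cells, with a log2 change of -0.18 (adjusted p = 0.43).

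IRF2, the antagonist of IRF1, lies at chr4:184387729-184474550. Intensity was 46.5, 56.4 and 77.0 in RASv12 cells, against 77.0, 38.9 and 37.8 in control cells. Control replicate 1 was about as high as the highest RASv12 sample, so the groups overlapped. The log2 change was 0.27 with a 95% confidence interval from -0.28 to 0.82 (adjusted p = 0.468 from limma). Without control replicate 1 it was 0.52 (adjusted p = 0.075).

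STAT4, a STAT best known from T cells and natural killer cells, lies at chr2:191029576-191151596 and had the largest log2 change of the 10 probe sets. Intensity was 52.6, 56.0 and 91.0 in RASv12 cells, against 34.4, 25.4 and 17.7 in control cells. The RASv12 values were above every control value, with RASv12 replicate 3 the highest, and 2 of the 3 control values were within the low bacterial controls. STAT4 was therefore at least 2.15-fold higher in RASv12 cells, a bound with those 2 control values raised to the brightest low control. The log2 change was 1.01 ± 0.19 (adjusted p = 0.0106 from limma), and the rise was called in all 17 other settings. All 13 measured leukocyte markers had group means under the brightest low control in RASv12 and in control cells. Of these, 9, among them PTPRC (CD45), were under it on every array, and 4 exceeded it on some array, CD3E with 28.2 and 36.9 on 2 RASv12 arrays among them. Their summed intensity was 121 to 216 on RASv12 arrays and 89.6 to 176 on control arrays, and 2 of them, MS4A1 and CSF1R, were called higher with both group means under the brightest low control.

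STAT3, the main effector of the interleukin 6 family, lies at chr17:42313324-42388442 and gave unlike values on its 2 probe sets. On 208991_at intensity was 249, 264 and 223 in RASv12 cells, against 362, 441 and 381 in control cells. All RASv12 values were below all control values, and STAT3 on this probe set fell by 0.67 on the log2 scale (SE 0.11, adjusted p = 0.0055 from limma). On 208992_s_at intensity was 179, 149 and 162 in RASv12 cells, against 92.6, 196 and 202 in control cells. Here the RASv12 values lay between control replicate 1 and the other controls, and the log2 change of 0.087 had a 95% confidence interval from -0.57 to 0.74 (adjusted p = 0.871). Without control replicate 1 that change was -0.25 (adjusted p = 0.196). The mean of both probe sets did not pass (-0.29, adjusted p = 0.25), and scaling the arrays to the hybridization controls ended the call of 208991_at (-0.33, adjusted p = 0.0797). Which transcripts each probe set reads was not tested.

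STAT6, which carries the interleukin 4 and 13 signal, lies at chr12:57095408-57111362, on the same chromosome as STAT2 (chr12:56341597-56360107). On 201331_s_at intensity was 308, 256 and 299 in RASv12 cells, against 365, 323 and 356 in control cells. The groups did not overlap, and the log2 change of -0.29 ± 0.11 did not pass (adjusted p = 0.109 from limma), with 0.059 under scaling to the hybridization controls. On 201332_s_at the values were 41.1, 27.4 and 39.7 in RASv12 cells, against 36.9, 40.8 and 33.9 in control cells. These overlapped, with a log2 change of -0.012 and a 95% confidence interval from -0.35 to 0.33.

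**Figure D2:**
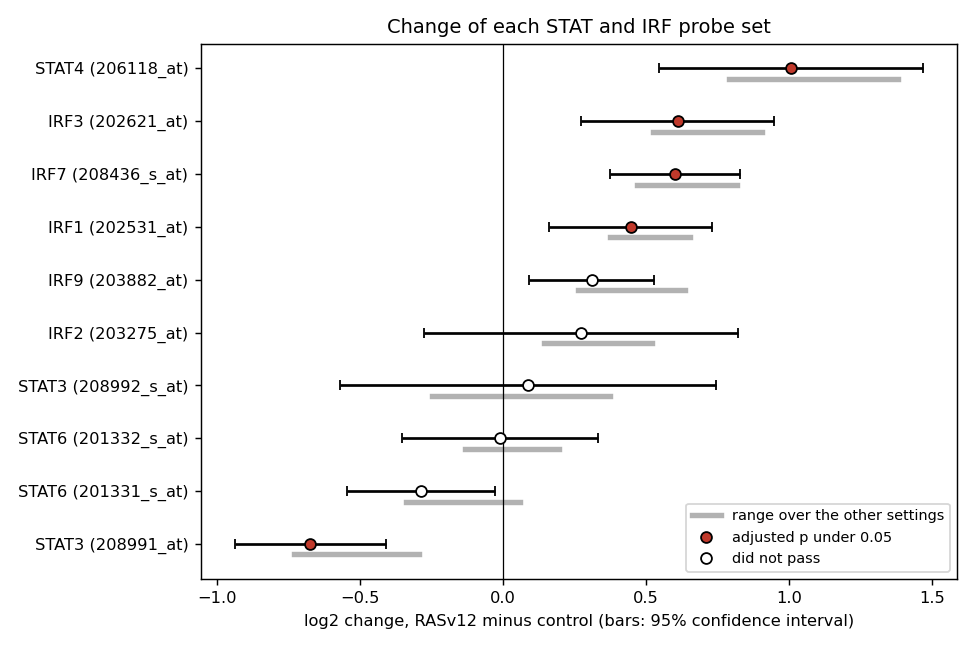
Log2 change (RASv12 minus control) of each probe set with its 95% confidence interval from limma, filled where the adjusted p was under 0.05; the grey bar under each is the range over the 15 to 17 other settings, for brightest probe sets including the mean of a gene's probe sets. IRF7, IRF3, IRF1 and STAT4 are filled on the positive side and STAT3 208991_at on the negative side. The ranges of STAT6 201331_s_at, STAT6 201332_s_at and STAT3 208992_s_at cross 0.

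Among all other genes, the profile over the 6 arrays closest to IRF7 was that of PSMB7, a proteasome subunit, at a root mean square distance of 0.032 on the centred log2 scale. AHCY and CDV3 came next at 0.032 and 0.037. For IRF1 the closest were PARVB, AGT and SOX30 (0.033 to 0.044), for IRF3 DELEC1, SPR and SCN3B (0.049 to 0.058) and for IRF9 SAP18, CHD1 and HAGH (0.019 to 0.034). STAT4 was followed by ITCH, ABL2 and RGS4 (0.10 to 0.11), and STAT3 by PTTG1IP, WNT16 and LIN7A (0.052 to 0.058). For STAT6 the closest genes were SNX6, DPY19L1 and PPFIA1 (0.014 to 0.031), and for IRF2 they were DOCK9, LRAT and IL2RB (0.061 to 0.079). With 6 arrays in 2 groups such distances mainly compare the size of the group difference, and they are a description.

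The pathway around these factors was described with 9 lists holding 161 measured genes, each gene read on its brightest probe set. Of the 161 genes 57 rose, 20 fell and 84 did not pass, beside 13.0% higher and 14.8% lower over all genes. Scaling to the hybridization controls, under which the median over all genes was 0.20 in place of 0.020, gave 71 higher and 13 lower. Shares of all genes called with that scaling are not given, so its counts, here and below, have no background beside them.

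Of 27 measured ligands that activate STATs, 8 rose and none fell, and for 19 both group means were under the brightest low control, 2 of the 8 that rose (IFNA10 and CNTF) included. Without the dimmest 50% of probe sets 4 rose. The rises were led by ligands that signal through STAT3. Leukaemia inhibitory factor, LIF, had intensities of 937, 1006 and 1175 in RASv12 cells, against 101, 108 and 127 in control cells (log2 change 3.05 ± 0.14, adjusted p = 2.7e-05 from limma). IL11 rose by 3.62 ± 0.26, IL6 by 5.65 ± 0.088, and IL24 was at least 1.48-fold higher. IL12A, a subunit of the interleukin 12 that activates STAT4 and a gene chosen after its values were seen, had intensities of 95.8, 73.0 and 65.6 in RASv12 cells, against 36.6, 28.7 and 29.6 in control cells (adjusted p = 0.0039). The partner subunit IL12B (5.66 in RASv12 and 7.11 in control cells, adjusted p = 0.586) and the receptor chains IL12RB1 and IL12RB2 (adjusted p = 0.864 and 0.917) were not called, and all 3 were under the brightest low control on every array. Of the interferon genes IFNA17 had group means above the low controls, at 61.4 ± 23.9 in RASv12 cells and 58.4 ± 22.3 in control cells (SD, n = 3 each), with adjusted p = 0.82, and IFNA genes are close copies whose signal may be shared. CTF1, of the interleukin 6 family, had 0.44 (adjusted p = 0.27). The probe set of IFNB1, interferon beta, averaged 1.95 in RASv12 cells and 1.71 in control cells, both within the low controls. IFNA10 and IFNG, looked up after their values were seen, were under the brightest low control on every array too. IFNA10 averaged 20.5 in RASv12 cells and 4.20 in control cells and was called higher (adjusted p = 0.0116), and IFNG averaged 21.2 in RASv12 cells and 13.1 in control cells with no overlap (adjusted p = 0.0504).

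Of 18 measured receptor chains 4 rose and 5 fell, the other 9 not being called, and 5 rose and 3 fell with scaling to the hybridization controls. Of the genes that fell, LIFR had both group means under the brightest low control. IL13RA2, a decoy receptor for interleukin 13, had intensities of 588, 622 and 683 in RASv12 cells, against 32.5, 11.5 and 17.7 in control cells. It was at least 21.4-fold higher, with 2 control values within the low controls (adjusted p = 2.7e-05 from limma). IL4R, the chain shared by the interleukin 4 and 13 receptors, rose by 1.03 ± 0.093 and IFNGR2, a chain of the interferon gamma receptor, by 0.62 ± 0.091. IL11RA was at least 1.49-fold lower. IL6ST (gp130), the shared chain of the interleukin 6 family, had -0.10 on its brightest probe set (adjusted p = 0.54), while 2 of its 5 probe sets were called higher. The mean of all 5 gave 0.64 (adjusted p = 0.025). OSMR, the oncostatin M receptor, had 0.93 (adjusted p = 0.062) and passed in 7 of 17 other settings, without control replicate 2 among them (1.15, adjusted p = 0.0494).

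None of the 4 Janus kinases passed in limma, and 1 had an unadjusted p under 0.05. JAK1 averaged 451 ± 33.6 in RASv12 cells and 530 ± 63.3 in control cells (SD, n = 3 each; log2 change -0.23). JAK2 had -0.43, TYK2 0.09 and JAK3 0.60, with adjusted p from 0.078 to 0.66 over the 4 genes. JAK3 passed where the dimmest 25% or 50% of probe sets were left out (adjusted p = 0.0484 and 0.0298).

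Among 16 inhibitors of STAT signalling 3 rose and 3 fell, with 10 not called, and 5 rose with scaling to the hybridization controls. SOCS proteins block the receptor complex, and their genes moved unequally. SOCS5 had intensities of 128, 139 and 164 in RASv12 cells, against 326, 345 and 342 in control cells, and fell by 1.15 on the log2 scale. SOCS2 fell by 1.18, and SOCS1 was at least 1.66-fold lower, with adjusted p from 0.000495 to 0.00556 for the 3 genes. All 3 probe sets of SOCS5 and both of SOCS2 were called lower, but only 1 of the 4 of SOCS1. SOCS3, named after its call was seen and also on the STAT3 target list, averaged 58.9 ± 10.8 in RASv12 cells and 35.2 ± 3.17 in control cells. It rose by 0.59 (adjusted p = 0.0325), with 1 of its 3 probe sets called. The phosphatase gene PTPN1 rose by 0.51 ± 0.115 (adjusted p = 0.0199 from limma), a call that ended without RASv12 replicate 2 or 3 or control replicate 3 (adjusted p = 0.0721, 0.0565 and 0.0721), with a pseudocount of 1 (0.0559) and with the mean of its 3 probe sets (0.18, adjusted p = 0.178). PTPN11, the phosphatase SHP2, had 0.35 and PIAS3, an inhibitor of STAT3 DNA binding, -0.19, and neither passed, while the mean of the PTPN11 probe sets did (0.46, adjusted p = 0.0236). The number of inhibitors that rose was 0 or 1 without RASv12 replicate 1, 2 or 3 or control replicate 2 or 3.

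Of 17 kinases and adaptors upstream of IRF3 and IRF7, 5 rose and 1 fell, with 11 not called, against 8 and 0 with scaling to the hybridization controls. RIGI, a sensor of viral RNA, averaged 113 ± 33.1 in RASv12 cells and 44.7 ± 1.82 in control cells (log2 change 1.09 ± 0.18, adjusted p = 0.0062 from limma). MYD88, the adaptor of Toll-like and interleukin 1 receptors, rose by 0.59 ± 0.11 and IRAK1, a kinase it recruits, by 0.74 ± 0.11. IFIH1, another RNA sensor, was called higher, but both group means (24.9 in RASv12 and 4.73 in control cells) were under the brightest low control, with RASv12 replicate 3 at 29.8, and no fold can be set. TBK1, the kinase that phosphorylates IRF3, had -0.07 and its binding partner TANK 0.38, and neither passed, while the mean of the TANK probe sets did (0.36, adjusted p = 0.0328). MAVS, looked up after its call was seen, was the gene that fell. It averaged 52.0 in RASv12 cells and 90.9 in control cells (log2 change -0.61, adjusted p = 0.0398 from limma). The number of genes that fell was 0 without RASv12 replicate 1 or 3 or control replicate 1, 2 or 3, and 2 without RASv12 replicate 2.

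**Figure D3:**
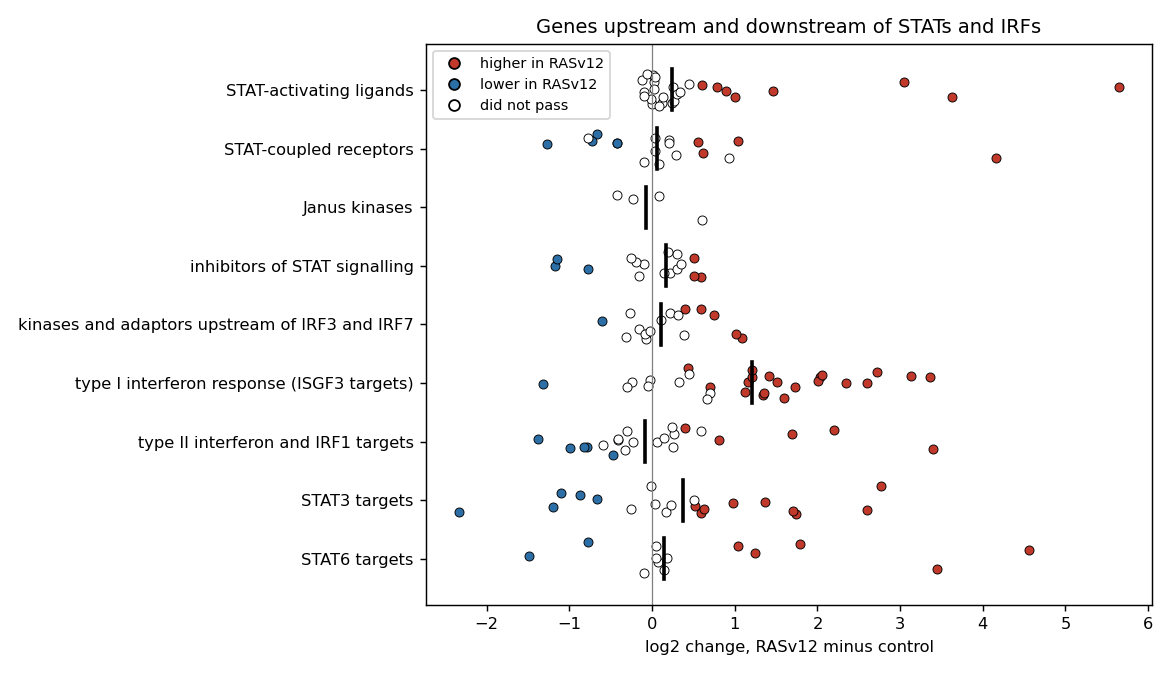
Log2 change (RASv12 minus control) of each measured gene on the 9 lists, 1 point a gene, red where called higher, blue where called lower and white where it did not pass; the black bar is the list median, and vertical scatter within a row has no meaning. The median of the type I interferon list is 1.21 and those of the other 8 lists lie between -0.085 and 0.37.

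Targets of ISGF3 rose together: 20 of 29 genes of the type I interferon response (69.0%) rose, 1 fell and 8 were not called. The list median was 1.21, beside 0.020 over all genes. It was 1.32 with dim genes at their bound and the 3 genes dim in both groups left out. OASL, an antiviral oligoadenylate synthetase-like protein, had intensities of 448, 409 and 367 in RASv12 cells, against 34.2, 32.5 and 29.1 in control cells (adjusted p = 8.8e-06 from limma). RSAD2, the antiviral enzyme viperin, was at least 2.73-fold higher and ISG20, an exonuclease, at least 3.90-fold higher. ISG15, a ubiquitin-like modifier, had intensities of 3121, 2333 and 2270 in RASv12 cells, against 370, 409 and 417 in control cells. The gene that fell was IFITM2, a membrane protein that restricts virus entry, which was looked up after its call was seen (log2 change -1.32, adjusted p = 0.000588). IFITM3 had -0.24 and EIF2AK2, the RNA-activated kinase PKR, -0.05 on their brightest probe sets, and neither passed, while the mean of 2 EIF2AK2 probe sets was called at 0.60 (adjusted p = 0.0025).

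Among genes induced by interferon gamma and IRF1, 22 were measured. As many rose as fell, 5 each, the other 12 were not called and the median was -0.085. The calls were 9 higher and 2 lower with scaling to the hybridization controls. The number that rose was 3 without RASv12 replicate 2 or 3 or control replicate 3, and the number that fell was 3 without RASv12 replicate 2 or control replicate 3. CXCL10, a T-cell chemokine, had intensities of 202, 171 and 160 in RASv12 cells, against 21.3 to 30.4 in control cells, and was at least 6.15-fold higher. The related CXCL11 was at least 1.69-fold higher, and ICAM1, an adhesion molecule also driven by NF-kB, rose by 3.40 ± 0.098. NMI, a protein that binds STATs, was at least 3.17-fold lower, with intensities of 27.6, 19.5 and 24.3 in RASv12 cells, against 92.1, 77.5 and 97.9 in control cells. B2M, the light chain of MHC class I, did not pass (0.27), but did when the arrays were scaled to the hybridization controls (0.61, adjusted p = 0.00788) and with limma-trend (adjusted p = 0.0475). The DNA sensor IFI16 did not pass (0.15), but did with that scaling (0.50, adjusted p = 0.0225) and with the mean of its probe sets (0.51, adjusted p = 0.012). The difference between this list and the type I list was not tested.

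STAT3 targets had 9 rises and 5 falls among 20 measured genes (median 0.37). VEGFA, an angiogenic factor, rose by 2.60 ± 0.11, TNFAIP3, an NF-kB inhibitor, by 2.77 ± 0.13, MYC by 1.74 ± 0.13 and the survival gene MCL1 by 1.70 ± 0.104. CCND1 had -0.02, and BCL2L1, which encodes BCL-xL, had 0.51 (adjusted p = 0.051) and passed in 9 of 17 other settings, among them the fit without control replicate 3 (0.63, adjusted p = 0.0462) and the mean of its probe sets (0.66, adjusted p = 0.00593). The genes that fell, besides LIFR, were looked up after their calls were seen. NNMT was at least 5.83-fold and PIM1 at least 2.37-fold lower. A2M had -1.20 and CEBPD -0.87, with adjusted p from 0.000335 to 0.0126 in limma for these genes. Of the calls on this list FOS, higher, and LIFR, lower, had both group means under the brightest low control. STAT6 targets had 5 rises and 2 falls among 13 measured genes (median 0.14, or 1.03 with dim genes at their bound and genes dim in both groups left out). SERPINB4 and SERPINB3, near-identical protease inhibitors whose signal may be shared between probe sets, were at least 14.2-fold and 10.6-fold higher. TGM2, a transglutaminase, rose by 1.78 ± 0.10, and MAOA, a monoamine oxidase, was at least 1.91-fold lower, with 1 of the 3 MAOA probe sets called. CISH (0.14) and POSTN (0.05) did not pass, and POSTN did with scaling to the hybridization controls (0.41, adjusted p = 0.0304).

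The response element core, to which ISGF3 and IRFs bind, is shown in 3 of the 4 type I targets named above, with 15 bases on each side. Binding at these sites was not tested. For OASL no such window lay wholly before a start, which does not show that it lacks a core. ISG15 holds overlapping copies, of which the middle one is in capitals, at chr1:1013375-1013413, RSAD2 lies at chr2:6865791-6865829 and ISG20 at chr15:88638932-88638970, all on the plus strand of GRCh38.p14.
ISG15: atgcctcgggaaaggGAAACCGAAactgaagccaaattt
RSAD2: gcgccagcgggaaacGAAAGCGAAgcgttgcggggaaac
ISG20: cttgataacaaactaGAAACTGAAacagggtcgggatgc

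The cores in capitals began 107, 69 and 79 bases before the start of ISG15, ISG20 and RSAD2. Another RSAD2 promoter, not printed, held a match on the opposite strand that began 144 bases before its start (window chr2:6877618-6877656). Of type I list genes with a RefSeq promoter 18 of 23 (78.3%) held it, as did 14 of 18 (77.8%) of the interferon gamma and IRF1 list, while none of 13 STAT3 target genes did. These lists were drawn up as known targets, so the share is a property of the choice. Of the type I genes 13 of 18 with a match rose, beside 3 of 5 without one. Of the measured interferon gamma and IRF1 genes 3 of 14 with a match rose and 2 fell, beside 2 of 3 that rose and 0 that fell without one. Over all 904 measured genes with a match 14.9% rose and 14.5% fell, close to 13.2% and 15.2% of the 8659 without one. For the gamma-activated site 14.7% of genes with a match rose and 16.6% fell, beside 13.2% and 15% of those without.

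Array-wide values that touch these results are few. Arrays correlated at 0.975 to 0.987 within groups and 0.912 to 0.928 between groups, and each array had 48.6% to 54.1% of its probe sets above the brightest low control. The 18 hybridization controls were all lower on RASv12 arrays, by a mean of 0.34 on the log2 scale, which is why scaling to them shifts every change upward. Of 13 fibroblast markers 10 fell in RASv12 cells and all 13 stayed above the low controls, with a summed intensity of 11322 to 12905 on RASv12 arrays and 23716 to 26019 on control arrays. In such bulk samples a lower signal from fewer expressing cells and one from less RNA per cell cannot be told apart. Endothelial markers summed to 87.7 to 160 on RASv12 and 103 to 130 on control arrays, and epithelial markers to 237 to 274 on RASv12 and 264 to 301 on control arrays. Single markers moved within these sums. Of 6 endothelial markers TIE1 rose (mean 48.2 in RASv12 and 1.34 in control cells) and TEK fell (26.4 and 78.6). Of 8 epithelial markers SFTPB rose (57.7 and 33.6) and KRT19 fell (17.6 and 52.7). The part of other cells in any change was not tested.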

How the data were processed

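RNA from 3 RASv12 and 3 control samples was read on 1 array each. The authors deposited 1 table of linear signal intensity per probe set. Per the submitters' processing notes it came from MAS5, with its version and scaling target not given in the sources used here. The mean intensity after trimming 2% from each end was 100.0 on every array, so arrays had been scaled before deposit. Depth has no meaning for arrays, whose number (3 a group) limits precision.

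Of 22283 probe sets 68 controls were left out and 22215 tested, with no filter on dim ones. The annotation gave 1 symbol to 19065 of these, several to 1043 and none to 2107, and symbols were updated through RefSeq (GRCh38.p14), where 12 found no match. Intensities were transformed as log2(value + 16), which understates changes of dim genes, and quantile normalized. RASv12 was compared with control by limma 3.58.1 (lmFit, eBayes) in R 4.3.3, and p-values were adjusted by Benjamini-Hochberg across the 22215 probe sets, with a threshold of 0.05. A gene on a list takes its brightest probe set by mean over the 6 samples. Where a group's mean or all 3 of its values lay at or under 27.98, the brightest of 27 low bacterial control probe sets, a fold is a bound. It is from means of log2 intensity, with each value under that level raised to it. These intensities are as deposited, before quantile normalization, and the bound holds no sampling error.

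All probe sets of the 9 genes were to be named, and from each list up to 4 called genes with the largest moderated t and up to 2 of the brightest that did not pass. The members and lists were chosen with earlier results of these data known. No list was tested as a set. The procedure was tested on simulated data. Alternatives covered normalization, pseudocount, dim probe sets, variance model, probe set choice, replicate block and leaving out each sample. The same replicate numbers did not mark paired samples in the labels.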

Additional observations from a re-analysis of the deposited data

How the results depend on the processing

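Of 4 member probe sets called higher, 2 were left with a pseudocount of 1, 2 with the replicate block and 2 to 4 without 1 replicate, and scaling to the hybridization controls gave 5. The 1 called lower was 0 with that scaling and 1 in each fit without 1 replicate. List genes called lower numbered 20, and 13 with that scaling, 15 to 19 without 1 replicate, and those called higher numbered 57, and 49 to 71 over 17 settings. With the replicate block IRF1 and IRF3 lost their calls (adjusted p = 0.108 and 0.0679), as did PTPN1 (0.0651), and BCL2L1 gained one (0.0379), and the inhibitors of STAT signalling that rose numbered 1 and the interferon gamma and IRF1 targets that fell numbered 3. Deviations of samples with the same number correlated at -0.23, -0.028 and -0.070, and 0 of 3 RASv12 arrays lay closest to the control array of their own number. With 3 arrays a group these values cannot settle whether the numbers pair the samples. IRF9 was called with scaling to the hybridization controls (0.64), a pseudocount of 32 (0.29), without the dimmest 50% of probe sets (adjusted p = 0.0407), with limma-trend (0.0321) and with 1 probe set a gene (0.0463). The mean of a gene's probe sets turned IL6ST (0.64) and EIF2AK2 (0.60), gave calls to PTPN11, TANK, IFI16, BCL2L1, OSMR and IRF9, and ended those of PTPN1 and STAT3. Scaling to the hybridization controls gave calls to IRF9, OSMR, PTPN11 (0.69), TANK (0.72), B2M, IFI16, BCL2L1 and POSTN. Of 166 alternative values of member probe sets 145 stayed on their side of the threshold, 15 lost a call and 6 gained one, and of 306 alternative counts of single lists 34 moved by over 1.5 times, of which those not given beside their list were 0 inhibitors higher with a pseudocount of 1, 1 STAT6 target lower and 2 receptors lower without the dimmest 50%, 3 receptors lower with limma-trend, with the mean of probe sets and without control replicate 3, and 2 adaptors lower with limma-trend. The cause was not tested. STAT4 in control cells, and the interferon genes, are limited by signal close to the low bacterial controls.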
